A study of Homo sapiens with 8 samples.

Results

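The clustered protocadherins are cell-surface adhesion proteins encoded by 3 neighbouring gene arrays on human chromosome 5. All 54 genes whose symbol is PCDHA, PCDHB, PCDHGA or PCDHGB followed by a number, or PCDHAC1, PCDHAC2, PCDHGC3, PCDHGC4 or PCDHGC5, were taken from the 60649 gene identifiers of the tables. The choice rested on symbols and used no measured value. They comprise 16 genes of the alpha cluster (chr5:140786136-141012347 on GRCh38, plus strand), 16 of the beta cluster (chr5:141051374-141249365) and 22 of the gamma cluster (chr5:141330514-141512979). In all, 53 are protein-coding, and PCDHA14 is annotated as a transcribed pseudogene. The values come from polyA RNA-seq of HCT116, a human colon carcinoma cell line, and of UF1hypo, 1 clone of HCT116 in which exon 4 of 1 UHRF1 allele had been removed, so that it is heterozygous for UHRF1. Each line carried lentiviral shScr, a scrambled control hairpin, or shUHRF1, a hairpin against UHRF1, as puromycin-selected stable pools. Each of the 4 resulting groups (HCT116 shScr, HCT116 shUHRF1, UF1hypo shScr, UF1hypo shUHRF1) had 2 libraries. The day of harvest of these libraries and whether the 2 libraries of a group came from separate cultures are not given in the sources used here, so the p-values measure the spread between libraries, which may be technical. In bulk RNA of this kind, fewer cells that express a gene and less RNA per cell cannot be told apart.

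Each gene of the alpha and gamma clusters has its own promoter and its own large variable first exon, which is spliced to 3 constant exons shared by the whole cluster, whereas the beta genes are essentially single exons without a constant part. In neurons, single promoters are chosen stochastically with the help of CTCF and cohesin, which loop a distal enhancer onto them, and the resulting set of isoforms on the surface lets a neuron tell its own branches from those of its neighbours through homophilic binding. The C-type genes PCDHAC1, PCDHAC2, PCDHGC3, PCDHGC4 and PCDHGC5 differ in sequence and are used in a less random way. Promoters that are not chosen carry DNA methylation, for which DNMT3B and the chromatin protein SMCHD1 are required in mice, and the clusters are often found hypermethylated in tumours, among them colorectal cancers. UHRF1 brings DNMT1 to newly replicated DNA and so maintains methylation, which is the question these data bear on for the clusters.

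Most clustered protocadherin promoters are small, with a short conserved element around CGCT that is a known binding site of CTCF. RefSeq promoter windows (GRCh38.p14), 250 bases before to 50 bases after the start site and 300 bases in all, were matched for 47 of the 54 genes by symbol, with no entry for PCDHA3, PCDHA13, PCDHA14, PCDHB6, PCDHB11, PCDHGA12 and PCDHGC5. A script searched both strands for 3 forms of this element, which were read off these same promoters and are therefore no independent finding. GATGTCGCT was in 9 of 11 alpha windows outside the C-type and in 0.105% of all 35116 promoter windows. GGTGGCGCT was in 13 of 14 beta windows, the exception being PCDHB1, and in 0.501% of all. CGCTGTTNA was in 10 of 18 gamma A and gamma B windows, in 1 beta window, that of PCDHB3, which holds both forms, and in 0.39% of all. None of the 4 C-type windows held any of the 3 forms. The stretches around the element are shown for the genes that reached the highest levels in their cluster and hold it, with the element in capitals, so that the shared letters of genes with different levels can be compared.
PCDHA6 (chr5:140827893-140827932): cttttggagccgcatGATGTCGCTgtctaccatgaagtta
PCDHA10 (chr5:140855837-140855876): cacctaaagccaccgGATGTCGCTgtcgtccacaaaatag
PCDHB2 (chr5:141094540-141094579): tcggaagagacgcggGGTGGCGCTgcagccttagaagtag
PCDHB9 (chr5:141187070-141187109): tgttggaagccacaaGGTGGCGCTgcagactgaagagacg
PCDHB10 (chr5:141192295-141192334): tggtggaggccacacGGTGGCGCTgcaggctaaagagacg
PCDHB13 (chr5:141213861-141213900): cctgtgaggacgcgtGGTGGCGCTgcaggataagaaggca
PCDHB14 (chr5:141223259-141223298): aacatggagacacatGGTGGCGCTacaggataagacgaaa
PCDHB15 (chr5:141245310-141245349): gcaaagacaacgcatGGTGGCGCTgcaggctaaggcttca
PCDHGA9 (chr5:141402715-141402754): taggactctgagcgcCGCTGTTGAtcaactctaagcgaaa
PCDHGA10 (chr5:141412932-141412971): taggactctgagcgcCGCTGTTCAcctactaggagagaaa
The windows also differed in CpG dinucleotides, the substrate of DNA methylation. The 4 C-type windows held 15 to 27 of them, with a median of 20.5, whereas the other alpha windows had a median of 7, the beta windows of 7.5 and the other gamma windows of 6.5. The median over all promoter windows was 14. The whole windows of PCDHGA10, the gamma gene with the highest level, PCDHB10, the only beta gene that passed a TPM of 1, and PCDHAC2, the alpha gene with the highest level and without the element, show this contrast.
PCDHGA10 (chr5:141412737-141413036, plus strand): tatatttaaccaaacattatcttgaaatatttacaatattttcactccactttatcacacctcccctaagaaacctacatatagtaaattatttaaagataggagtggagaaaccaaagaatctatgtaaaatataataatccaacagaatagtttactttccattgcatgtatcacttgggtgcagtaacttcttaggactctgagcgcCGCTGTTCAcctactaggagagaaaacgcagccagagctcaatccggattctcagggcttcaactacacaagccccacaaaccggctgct
PCDHB10 (chr5:141192103-141192402, plus strand): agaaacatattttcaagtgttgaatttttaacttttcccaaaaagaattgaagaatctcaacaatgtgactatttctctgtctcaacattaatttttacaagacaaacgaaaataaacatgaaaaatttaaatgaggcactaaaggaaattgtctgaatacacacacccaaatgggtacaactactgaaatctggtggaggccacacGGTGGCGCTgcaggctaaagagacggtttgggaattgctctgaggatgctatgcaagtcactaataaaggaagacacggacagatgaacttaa
PCDHAC2 (chr5:140966226-140966525, plus strand): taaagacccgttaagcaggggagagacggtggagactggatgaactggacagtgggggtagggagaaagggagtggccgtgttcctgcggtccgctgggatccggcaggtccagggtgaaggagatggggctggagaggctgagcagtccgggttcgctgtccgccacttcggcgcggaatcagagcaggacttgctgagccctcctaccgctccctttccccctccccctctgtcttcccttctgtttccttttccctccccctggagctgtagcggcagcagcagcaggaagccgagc
PCDHGA10 and PCDHB10 held 5 CpG dinucleotides each and PCDHAC2 held 15. A match describes these letters only, and DNA methylation at these windows was not analysed here.

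UHRF1, the gene targeted in both lines, had 87.5 and 98.4 TPM (a transcript level scaled for length and sequencing depth) in HCT116 with shScr and 31.7 and 32.7 with shUHRF1, and 47.3 and 50.6 in UF1hypo with shScr and 34.1 and 21.1 with shUHRF1. On the log2(TPM + 1) scale the knockdown difference was -0.84 ± 0.22 (SE) in UF1hypo (limma, adjusted p = 0.0406) and -1.5 ± 0.22 in HCT116 (adjusted p = 0.0564), and UF1hypo shScr lay 0.91 below HCT116 shScr on that scale (-0.91 ± 0.22, adjusted p = 0.0545). All 8 libraries expressed epithelial keratins, with KRT8 at 1539 to 5035 TPM. Of the neuronal markers, TUBB3 and ENO2 carried most of a summed level of 304 to 668 TPM and ELAVL4 was listed at 0 throughout, while PTPRC, the defining leukocyte marker, was listed at 0 in the 6 libraries of the other groups and had 0.0561 and 0.0728 TPM in UF1hypo shUHRF1. The bases covered in the tables amounted to 5.42 to 7.83 Gb per library. The libraries of UF1hypo shUHRF1 stood apart, since their log2 difference followed the GC content of genes with a Spearman rho of 0.845 across 11500 genes, against -0.567 in UF1hypo shScr, -0.037 in HCT116 shScr and -0.061 in HCT116 shUHRF1. Genes are not independent replicates, so these are descriptions. GC content of the members had medians of 48.0% for alpha, 47.7% for beta and 55.0% for gamma, and the part of GC content in the results below was not tested beyond a correction within 10 bins of GC content.

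Nearly all clustered protocadherins were at or near 0 in HCT116 and more of them were detected in UF1hypo with UHRF1 knockdown. In HCT116, 20 and 25 of the 54 genes had a TPM above 0 with shScr and 32 and 28 with shUHRF1, and in UF1hypo 32 and 38 with shScr and 46 and 50 with shUHRF1. Above 0.1 TPM the numbers were 15 and 12, 12 and 11, 18 and 21, and 32 and 37 in the same order. UF1hypo shUHRF1 did not overlap with any other group in either count. Detection of weakly expressed genes in general moved the same way: among 3718 protein-coding genes that never passed a TPM of 1, 35.6% to 48.5% were above 0 in the 6 libraries of the other groups, and 69.8% and 70.0% in UF1hypo shUHRF1. Only 5 of the 54 genes passed 1 TPM in any library, namely PCDHAC1, PCDHAC2, PCDHB10, PCDHGA9 and PCDHGA10. PCDHB1 alone was listed at 0 in all 8 libraries.

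**Figure D1:**
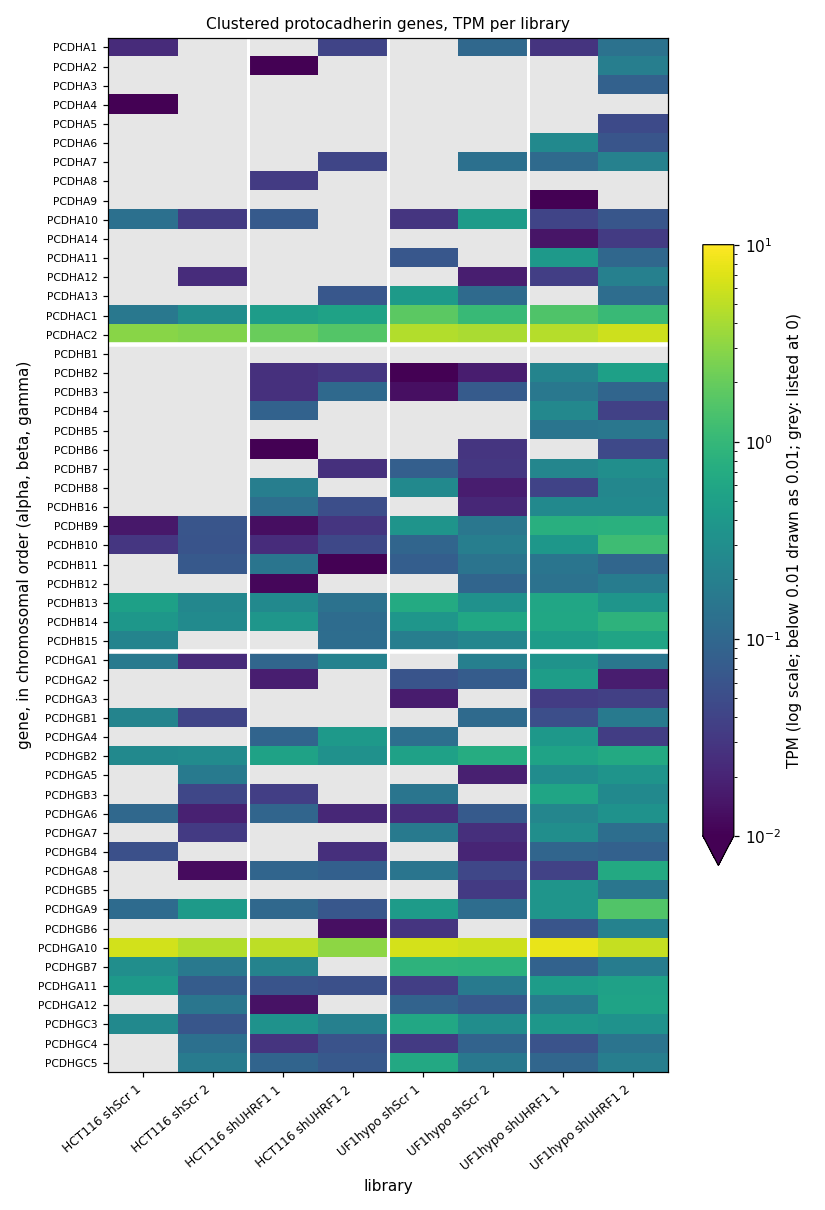
TPM of the 54 clustered protocadherin genes (rows, in chromosomal order, white lines between the alpha, beta and gamma clusters) in the 8 libraries (columns), on a logarithmic colour scale with grey for genes listed at 0. PCDHAC2 and PCDHGA10 are bright in every library, and the number of coloured cells goes from 20 and 25 in HCT116 shScr to 46 and 50 in UF1hypo shUHRF1.

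Summed over each cluster, the beta genes differed most between the groups. The summed beta level was 1.15 and 0.709 TPM in HCT116 with shScr and 1.31 and 0.663 with shUHRF1, and 2.16 and 1.95 in UF1hypo with shScr and 4.44 and 5.71 with shUHRF1. Both UF1hypo groups lay above both HCT116 groups, and UF1hypo shUHRF1 lay above all the rest. The mean in UF1hypo with knockdown, 5.08 ± 0.90 TPM (SD, n = 2), was 2.47 times that of UF1hypo shScr, 2.06 ± 0.14, which in turn was 2.21 times that of HCT116 shScr, 0.931 ± 0.314. In HCT116 the means with and without knockdown had a ratio of 1.06, well within the spread of the libraries. The summed level of the 3718 weakly expressed protein-coding genes, of which 47 are clustered protocadherins, had a ratio of 2.17 for knockdown in UF1hypo, 1.08 in HCT116 and 1.05 between the lines, and the 47 members among them had ratios of 1.81, 1.04 and 2.25. For knockdown in UF1hypo, the beta ratio thus lay above that of weak genes in general and the ratio of the 47 weak members below it, and between the lines both lay above. The beta sum also holds PCDHB10, which the weak genes leave out because it reached 1.16 TPM in the second UF1hypo shUHRF1 library. Its mean was 0.145 TPM in UF1hypo shScr and 0.773 in UF1hypo shUHRF1, so the beta ratio and that of weak genes are not over like sets. No test was run on summed levels, and an exact permutation of 2 against 2 libraries cannot give a two-sided p below 0.33.

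The alpha sum differed mainly between the lines. It was 3.29 and 3.06 TPM in HCT116 with shScr and 2.64 and 2.25 with shUHRF1, and 6.77 and 6.07 in UF1hypo with shScr and 7.10 and 8.26 with shUHRF1. The 4 UF1hypo libraries all lay above the 4 HCT116 libraries, with a ratio of 2.02 between the shScr groups, 1.2 for knockdown in UF1hypo and 0.771 for knockdown in HCT116. The gamma sum was 8.19 and 6.38 TPM in HCT116 with shScr and 6.85 and 4.69 with shUHRF1, and 10.4 and 8.91 in UF1hypo with shScr and 13.3 and 12.2 with shUHRF1. Its ratios were 1.32 between the shScr groups, 1.32 for knockdown in UF1hypo and 0.792 for knockdown in HCT116, where the groups overlapped. Under quantile normalization, which forces the same distribution of values on every library although the libraries hold different numbers of genes at 0, the log2 ratio for knockdown in UF1hypo turned to -0.22 for alpha and -0.093 for gamma and fell to 0.30 for beta.

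**Figure D2:**
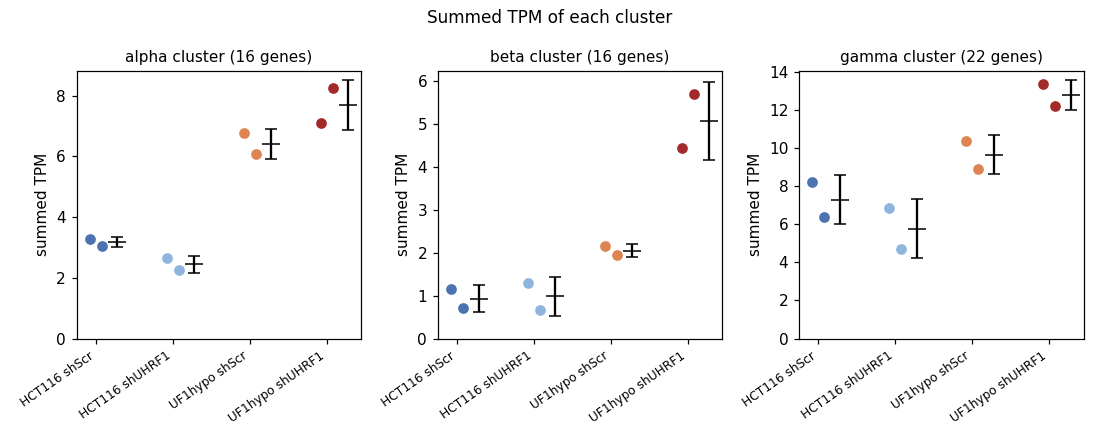
Summed TPM of the alpha, beta and gamma clusters in each of the 8 libraries (points, coloured by group), with the mean and SD of the 2 libraries of a group in black; every vertical axis starts at 0. The beta sum is 4.44 and 5.71 in UF1hypo shUHRF1 and below 2.2 in all other libraries, whereas the alpha sum separates the 2 lines.

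A pair of genes stood out in level. PCDHAC2, a C-type gene of the alpha cluster, made up 66.1% to 90.3% of the alpha sum, and PCDHGA10, a gamma A gene, 44.7% to 76.6% of the gamma sum. Together they held 43.5% to 73.2% of the TPM of all 54 genes, and 30.2% to 68.3% of their coverage (the mean read depth over a gene's bases), with the highest shares in HCT116 shScr and the lowest in UF1hypo shUHRF1 on both scales. PCDHAC2 had 2.97 and 2.71 TPM in HCT116 with shScr and 2.08 and 1.57 with shUHRF1, and 4.48 and 4.22 in UF1hypo with shScr and 4.69 and 5.92 with shUHRF1. Its groups did not overlap in any of the 3 comparisons, with lower values after knockdown in HCT116 and higher values after knockdown in UF1hypo. On the log2(TPM + 1) scale the difference was -0.45 ± 0.22 (SE) in HCT116 (limma, adjusted p = 0.859), 0.23 ± 0.21 in UF1hypo (adjusted p = 0.520) and 0.48 ± 0.22 between the shScr lines (adjusted p = 0.297), and the difference between the knockdown effects was 0.68 ± 0.30 (adjusted p = 0.274). PCDHGA10 had 6.27 and 4.56 TPM in HCT116 with shScr and 5.03 and 3.13 with shUHRF1, and 6.38 and 5.87 in UF1hypo with shScr and 7.89 and 5.45 with shUHRF1. Its groups overlapped in all 3 comparisons, and its log2 difference was 0.09 ± 0.27 for knockdown in UF1hypo (adjusted p = 0.863), -0.35 ± 0.27 in HCT116 (adjusted p = 1.00) and 0.16 ± 0.27 between the lines (adjusted p = 0.792).

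Without these dominant genes the clusters looked different. The other 15 alpha genes summed to 0.319 and 0.355 TPM in HCT116 with shScr and 0.563 and 0.681 with shUHRF1, and 2.29 and 1.86 in UF1hypo with shScr and 2.41 and 2.34 with shUHRF1. The ratio of the shScr lines was then 6.15, that for knockdown in UF1hypo 1.14 and that for knockdown in HCT116 1.84, the opposite direction to the 0.771 of the whole alpha sum. In HCT116 this was mostly PCDHAC1, with means of 0.228 TPM with shScr and 0.495 with shUHRF1. Without PCDHAC1 as well, the ratios were 6.09 between the shScr lines, 1.62 for knockdown in UF1hypo and 1.16 for knockdown in HCT116. The other 21 gamma genes summed to 1.91 and 1.81 TPM in HCT116 with shScr and 1.82 and 1.56 with shUHRF1, and 3.99 and 3.05 in UF1hypo with shScr and 5.45 and 6.74 with shUHRF1, with ratios of 1.73 for knockdown in UF1hypo, 0.906 in HCT116 and 1.89 between the lines.

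The study's filter keeps protein-coding genes above 1 TPM in at least 1 library of a comparison. Its thresholds are an adjusted p below 0.05 and an absolute log2 difference above 1. With this filter and these thresholds, but limma on log2(TPM + 1) in place of the study's DESeq2, no clustered protocadherin was called in any comparison. For UHRF1 knockdown in UF1hypo, 5 members entered the limma fit and 0 were called, beside 8.53% of the 13620 genes tested. At an unadjusted p below 0.05, 1 member passed, PCDHB10, beside 27.4% of all genes. For knockdown in HCT116, 2 members entered and 0 were called, beside 0.0708% of all genes, with 0 at an unadjusted p below 0.05 beside 6.38%. For the difference between the knockdown effects, 5 entered and 0 were called beside 5.09%, with 0 at an unadjusted p below 0.05 beside 18.5%. Between the shScr lines, 3 entered and 0 were called beside 3.54%, with 1 at an unadjusted p below 0.05, PCDHAC1, beside 18.2%. There PCDHAC1 passed the filter only through UF1hypo shScr, so that the filter favoured a higher level in that group. PCDHB10 and PCDHGA9 entered only through the second library of UF1hypo shUHRF1, so that the filter favoured an upward difference for both. With all libraries in the fit, their levels with knockdown in UF1hypo were too low for a call on this scale. Even from controls at 0 the difference would have stayed below 1, so their missing calls carry no information.

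**Figure D3:**
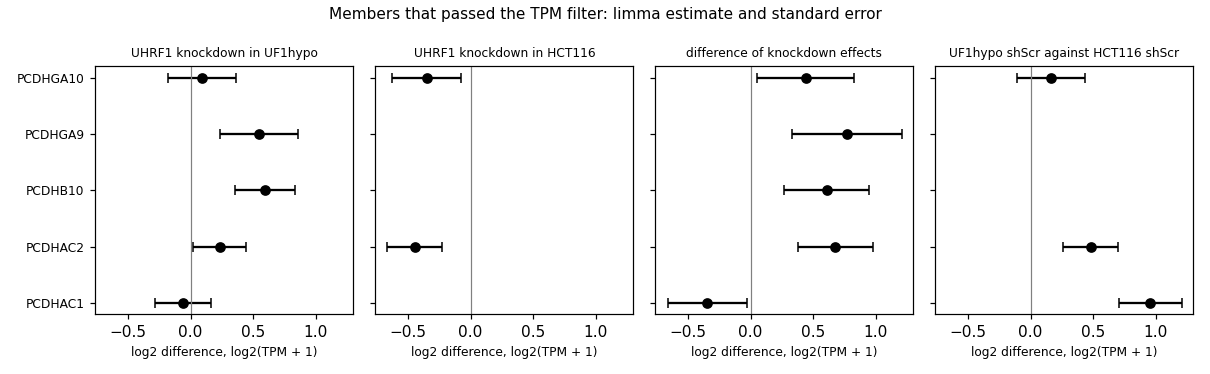
Differences on the log2(TPM + 1) scale (points) with their standard errors (bars) from the limma fit across all genes, for the members that passed the filter in each of the 4 comparisons; a missing point is a member that did not pass. The farthest estimate from 0 is that of PCDHAC1 between the shScr lines, 0.96, where it passed the filter only through UF1hypo shScr, and no member was called.

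Of the 3 clusters, the beta genes had the largest share of members that lay higher without overlap with UHRF1 knockdown in UF1hypo, 10 of 16, beside 31.4% of protein-coding genes above 0. PCDHB9 had 0.360 and 0.153 TPM in UF1hypo with shScr and 0.776 and 0.806 with shUHRF1, beside 0.0157 and 0.061 in HCT116 shScr and 0.0131 and 0.0292 in HCT116 shUHRF1. PCDHB10 had 0.0958 and 0.194 TPM in UF1hypo with shScr and 0.383 and 1.16 with shUHRF1, beside 0.0297 and 0.0596 in HCT116 shScr and 0.024 and 0.0453 in HCT116 shUHRF1. Both genes lay higher in UF1hypo than in HCT116 and higher again with knockdown, with no overlap at either step, and PCDHB10 had the widest gap between its libraries. The log2 difference of PCDHB10 for knockdown in UF1hypo was 0.60 ± 0.24 (limma, adjusted p = 0.15), and it entered the comparison through 1 library only. Without the first UF1hypo shUHRF1 library the difference was 0.92, under the log2 difference of 1 needed for a call. The group then held only the library through which the gene had passed the filter, so this value is no separate support. Without the second library the gene could not be tested.

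In HCT116, PCDHB2 was listed at 0 in both libraries with shScr and had 0.0263 and 0.0299 TPM with shUHRF1, and in UF1hypo it had 0.00482 and 0.0174 TPM with shScr and 0.224 and 0.511 with shUHRF1. PCDHB15 had 0.224 and 0 TPM in HCT116 with shScr and 0 and 0.117 with shUHRF1, and 0.192 and 0.236 in UF1hypo with shScr and 0.459 and 0.561 with shUHRF1. Both were highest in UF1hypo shUHRF1 without overlap. By contrast, the beta genes with the highest levels in HCT116 did not separate: PCDHB13 had 0.501 and 0.246 TPM in HCT116 with shScr and 0.266 and 0.135 with shUHRF1, and 0.689 and 0.332 in UF1hypo with shScr and 0.604 and 0.368 with shUHRF1. PCDHB14 had 0.383 and 0.273 TPM in HCT116 with shScr and 0.382 and 0.114 with shUHRF1, and 0.378 and 0.615 in UF1hypo with shScr and 0.608 and 0.872 with shUHRF1. The GGTGGCGCT element, shown above, stands before beta genes whose groups separated and before those whose groups overlapped. Since 13 of 14 beta windows hold it, this was bound to be so and says nothing on its part in these levels.

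**Figure D4:**
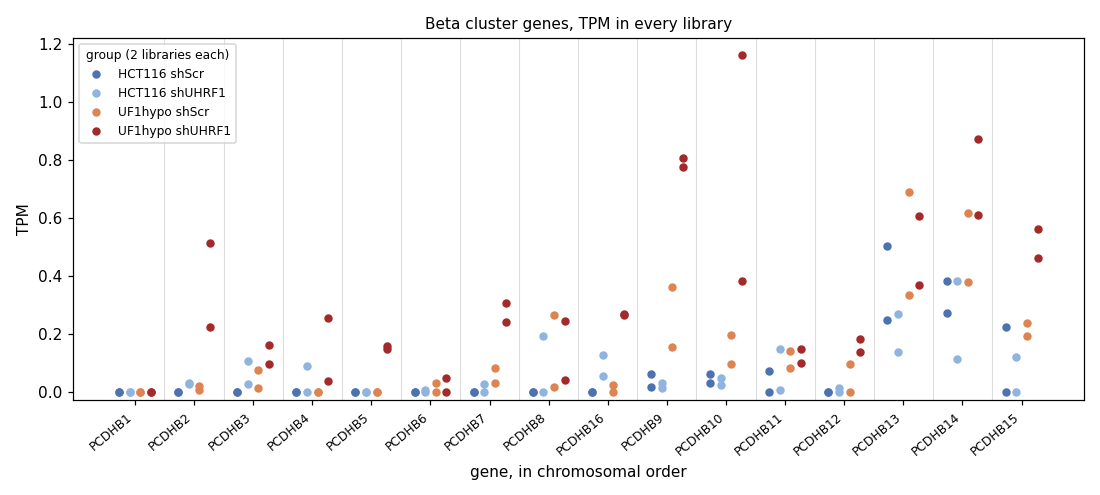
TPM of the 16 beta genes (horizontal axis, in chromosomal order) in each of the 8 libraries (points, 2 per group, coloured by group). Both UF1hypo shUHRF1 points of PCDHB9, 0.776 and 0.806, lie above all other points of the gene, while those of PCDHB13, 0.604 and 0.368, lie among the others.

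In all, 24 of the 54 genes had both UF1hypo shUHRF1 libraries above both UF1hypo shScr libraries, beside 31.4% of protein-coding genes above 0, and 1 gene, PCDHGB7, had both below, beside 15.6%. The higher genes were 10 of the 16 beta genes, 9 of the 22 gamma genes and 5 of the 16 alpha genes. Restricted to protein-coding genes at or under 1 TPM in these 4 libraries, 21 of 45 members were higher, beside 34.6% of all such genes. In 22 of the 54 genes both UF1hypo shUHRF1 libraries exceeded all 6 other libraries, beside 23% of all genes. PCDHA6, PCDHA14, PCDHB4 and PCDHB5 were singled out after their values were seen. They had no signal in either UF1hypo shScr library (listed at 0) and were above 0 in both with knockdown, PCDHB5 at 0.147 and 0.156 TPM. From such controls they could only come out higher. The share of all genes with this pattern was not counted, and detection of weakly expressed genes rose in general, as given above. Knockdown in HCT116 likewise had 4 members without signal in its controls and above 0 in both knockdown libraries.

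The filter at 1 TPM removed most members, and a fit without it was run on the same scale. For knockdown in UF1hypo it took in 50 members, of which 8 had an adjusted p below 0.05 (limma), beside 11.8% of all genes, and 16 an unadjusted p below 0.05, beside 26.5%. Higher with an adjusted p below 0.05 were 7, beside 9.78% of all genes: PCDHB2, PCDHB5, PCDHB7, PCDHB9 and PCDHB16 of the beta cluster, and PCDHGA5 and PCDHGA6 of the gamma cluster. Their log2(TPM + 1) differences ran from 0.20 for PCDHB5 to 0.52 for PCDHB9 (adjusted p = 0.0150), below the threshold of 1, since this scale compresses low levels. The only lower gene was PCDHGB7, at -0.71 ± 0.11 (SE, adjusted p = 0.0114). PCDHB5 could only come out higher, since neither of its controls had any signal. Its direction thus carries no information, here or in the fit that follows. With a pseudocount of 0.1 and no filter, chosen after the data were seen, 6 members passed both thresholds, all of them higher, beside 7.96% of all genes: PCDHB2 at 2.00 ± 0.35, PCDHGA5 at 1.95 ± 0.47, PCDHB16 at 1.73 ± 0.30, PCDHGB5 at 1.57 ± 0.36, PCDHB5 at 1.33 ± 0.23 and PCDHB7 at 1.27 ± 0.30.

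Among the gamma genes, PCDHGA9 had 0.112 and 0.436 TPM in HCT116 with shScr and 0.102 and 0.0648 with shUHRF1, and 0.448 and 0.117 in UF1hypo with shScr and 0.364 and 1.53 with shUHRF1. Its groups overlapped, and its log2 difference for knockdown in UF1hypo was 0.55 ± 0.31 (limma, adjusted p = 0.296). Without the first UF1hypo shUHRF1 library it was 0.99, also under 1, with only the library left in that group through which PCDHGA9 passed the filter. Without the second PCDHGA9 could not be tested. PCDHGB7 had 0.3 and 0.163 TPM in HCT116 with shScr and 0.219 and 0 with shUHRF1, and 0.870 and 0.847 in UF1hypo with shScr and 0.0885 and 0.181 with shUHRF1. It was thus high only in UF1hypo shScr, without overlap with any other group. PCDHGB2, another gamma B gene, had 0.263 and 0.277 TPM in HCT116 with shScr and 0.530 and 0.326 with shUHRF1, and 0.514 and 0.712 in UF1hypo with shScr and 0.549 and 0.667 with shUHRF1. It was lowest in HCT116 shScr, and the knockdown groups of UF1hypo overlapped. PCDHGA11 had 0.421 and 0.0752 TPM in HCT116 with shScr and 0.0603 and 0.0544 with shUHRF1, and 0.0364 and 0.168 in UF1hypo with shScr and 0.457 and 0.521 with shUHRF1, so that its groups separated in opposite directions in the 2 lines.

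By type, the 12 gamma A genes summed to 10.4 ± 0.9 TPM (SD, n = 2) in UF1hypo shUHRF1 and 7.08 ± 0.60 in UF1hypo shScr, a ratio of 1.47. Without PCDHGA10, the other 11 summed to 3.72 ± 0.87 and 0.950 ± 0.238 TPM, a ratio of 3.92. The 7 gamma B genes summed to 1.76 ± 0.05 and 1.64 ± 0.11 TPM, a ratio of 1.08, and without PCDHGB7 the other 6 summed to 1.63 ± 0.12 and 0.782 ± 0.131, a ratio of 2.08. Leaving out a single gene thus moved the ratio of each of these types. PCDHGB7 was the only member lower without overlap in this comparison, so leaving it out was bound to raise the gamma B ratio. The weakly expressed protein-coding genes in general had a ratio of 2.17. The 3 C-type gamma genes summed to 0.610 ± 0.095 and 0.925 ± 0.541 TPM, a ratio of 0.660 that lay within the spread. PCDHGC3, the most broadly expressed C-type gamma gene outside neurons, had 0.263 and 0.064 TPM in HCT116 with shScr and 0.341 and 0.205 with shUHRF1, and 0.628 and 0.294 in UF1hypo with shScr and 0.385 and 0.341 with shUHRF1. PCDHGC4 ranged from 0 to 0.143 TPM and PCDHGC5 from 0 to 0.648 TPM over the 8 libraries, the latter highest in the first library of UF1hypo shScr. Neither knockdown comparison separated the groups of any of the 3, and PCDHGC3 alone was higher in UF1hypo shScr than in HCT116 shScr without overlap.

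Of the alpha genes, PCDHAC1 differed most between the lines. It had 0.157 and 0.298 TPM in HCT116 with shScr and 0.458 and 0.532 with shUHRF1, and 1.76 and 1.05 in UF1hypo with shScr and 1.49 and 1.09 with shUHRF1. All 4 UF1hypo libraries lay above all 4 HCT116 libraries, the knockdown groups did not overlap in HCT116, and they did in UF1hypo. Its log2 difference between the shScr lines was 0.96 ± 0.25 (SE, limma, adjusted p = 0.0714), and 0.96 ± 0.17 without the TPM filter (adjusted p = 0.0387). With the filter, PCDHAC1 entered this comparison only through UF1hypo shScr, the group where it was high. For knockdown in UF1hypo the difference was -0.06 ± 0.22 (adjusted p = 0.888). The variable alpha genes outside the C-type stayed low and scattered. PCDHA13 had 0.432 and 0.110 TPM in UF1hypo with shScr and 0 and 0.118 with shUHRF1, 0 in both HCT116 shScr libraries and 0 and 0.0659 in HCT116 shUHRF1. PCDHA10 had 0.0289 and 0.446 TPM in UF1hypo with shScr and 0.0414 and 0.0629 with shUHRF1, 0.128 and 0.0328 in HCT116 shScr and 0.0707 and 0 in HCT116 shUHRF1. PCDHA11 had 0.066 and 0 TPM in UF1hypo with shScr and 0.419 and 0.1 with shUHRF1, and PCDHA6 was listed at 0 in UF1hypo shScr with 0.262 and 0.061 in UF1hypo shUHRF1; both were listed at 0 in all 4 HCT116 libraries. The 14 alpha genes outside the C-type summed to 1.08 ± 0.23 TPM (SD, n = 2) in UF1hypo shUHRF1, 0.667 ± 0.199 in UF1hypo shScr, 0.127 ± 0.031 in HCT116 shUHRF1 and 0.110 ± 0.074 in HCT116 shScr.

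UHRF1 knockdown in HCT116 left no member called. Both knockdown libraries lay above both controls in 7 of the 54 genes, beside 19.3% of protein-coding genes, and below them in 4, beside 25.5%. The higher genes were PCDHAC1, PCDHB2, PCDHB3, PCDHB16, PCDHGA4, PCDHGA8 and PCDHGB2, and the lower ones PCDHAC2, PCDHGB1, PCDHGA9 and PCDHGA11. Without the TPM filter, 0 of 44 members had an adjusted p below 0.05 (limma), beside 0.0123% of all genes, and 0 an unadjusted p below 0.05, beside 6.49%. The log2 ratio of the beta sum ran from -0.49 to 0.49 as each of the 4 libraries was left out, so that its direction depended on single libraries.

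When the knockdown effects in UF1hypo and HCT116 were compared directly, no member passed the test. Without the TPM filter, 0 of 52 members had an adjusted p below 0.05 (limma), beside 4.66% of all genes, and 13 an unadjusted p below 0.05, beside 18%. The lowest adjusted p were those of PCDHGA5, with 0.50 ± 0.11 on the log2(TPM + 1) scale (adjusted p = 0.0674), and of PCDHB9, with 0.54 ± 0.12 (adjusted p = 0.0677). A greater effect of knockdown in UF1hypo than in HCT116 was therefore not shown for single genes at this number of libraries.

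Between the shScr lines, 15 of the 54 genes had both UF1hypo libraries above both HCT116 libraries, beside 26.9% of protein-coding genes, and 0 had both below, beside 32%. Among protein-coding genes at or under 1 TPM in these 4 libraries, 13 of 41 members were higher, beside 18.4% of all such genes. The 15 were PCDHAC1, PCDHAC2 and PCDHA13 of the alpha cluster, PCDHB2, PCDHB3, PCDHB7, PCDHB8, PCDHB9, PCDHB10 and PCDHB11 of the beta cluster, and PCDHGA2, PCDHGA8, PCDHGB2, PCDHGB7 and PCDHGC3 of the gamma cluster. All 13 beta genes that were above 0 in these libraries had the higher mean in UF1hypo shScr. Their log2 differences without the TPM filter were likewise all above 0, beside 47.2% of all genes. Some of them, such as PCDHB2 and PCDHB16, were listed at 0 in both HCT116 shScr libraries and could only come out higher. Without the TPM filter, 1 of 44 members had an adjusted p below 0.05, PCDHAC1, beside 2.93% of all genes, and 6 an unadjusted p below 0.05, beside 15.9%. With a pseudocount of 0.1 as well, PCDHAC1 was the 1 member called, at 2.19 ± 0.42 (adjusted p = 0.0334), beside 2.2% of all genes called higher. UF1hypo is a single clone, so the UHRF1 allele and other differences of the clone cannot be told apart.

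The way reads become gene values bears on all these levels. TPM per unit of coverage was nearly constant over the libraries for many genes, for example 2.05 in PCDHA1. It varied for others, for example from 1.27 to 13.6 in PCDHA10, relative to beta genes. It does not measure how reads shared between genes were split. The beta genes had the same TPM per unit of coverage in a library, with values of 1.00 to 1.05 relative to their own median. Alpha genes had a median of 1.98 and reached 68.7 in PCDHA2, and gamma genes had a median of 1.78 and reached 8.96 in PCDHGC3. PCDHAC2 had 4.86 to 5.81 times the TPM per unit of coverage of beta genes, and PCDHGA10 1.39 to 1.41 times. In GENCODE 44, 3 of the 5 transcripts of PCDHAC2 lack the variable first exon. By coverage, PCDHAC2 had 0.670 to 3.44 and PCDHAC1 0.214 to 3.41 over the 8 libraries, and PCDHAC1 exceeded PCDHAC2 in the first library of UF1hypo shScr (3.41 against 2.68) and in the second of HCT116 shUHRF1 (0.758 against 0.670). PCDHGA10 had a coverage of 5.46 to 18.5, the highest of the family in every library, whereas by TPM PCDHAC2 exceeded it in the second library of UF1hypo shUHRF1 (5.92 against 5.45). Paralogues also share sequence: stretches of 75 bases found in another member made up a median of 46.6% of the transcript sequence of alpha genes, 43.1% of gamma genes and 9.2% of beta genes, and all of PCDHA14. Levels of single alpha and gamma genes, and that of PCDHA14 above all, are uncertain to that degree.

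**Figure D5:**
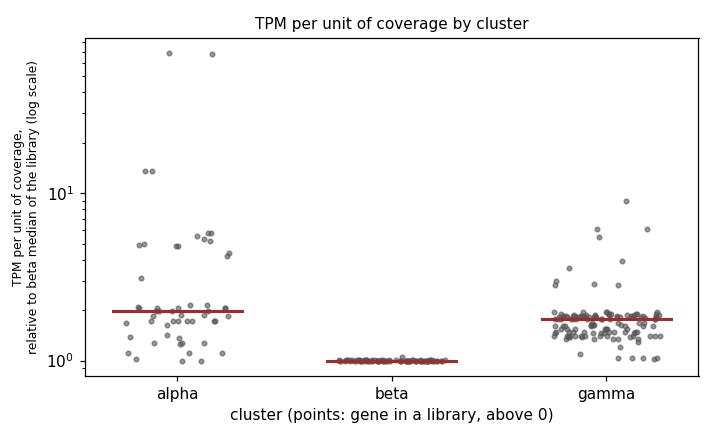
TPM per unit of coverage (vertical axis, logarithmic) of each clustered protocadherin above 0 in a library, divided by the median of the beta genes of that library; red bars are medians over 54 alpha, 84 beta and 133 gamma values. Beta values lie at 1.00 to 1.05, and alpha and gamma values spread upwards from about 1 with medians of 1.98 and 1.78.

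Genes that act on or with the clustered protocadherins were looked up in lists chosen for their known roles. All 15 genes of cohesin and CTCF were tested and none was called in any comparison (limma), beside 8.53% of all genes for knockdown in UF1hypo. CTCF had 43.5 and 40.6 TPM in UF1hypo with shScr and 35.8 and 47.1 with shUHRF1, with a log2 difference of -0.03 ± 0.18 (adjusted p = 0.925). Of 19 silencing factors, 18 were tested for knockdown in UF1hypo and 19 in the other comparisons, and none was called. SMCHD1, needed for silencing of the clusters in mice, had 35.4 and 32 TPM in HCT116 with shScr and 39.7 and 35 with shUHRF1, and 28.1 and 19.7 in UF1hypo with shScr and 11.8 and 31.1 with shUHRF1, with overlap in both knockdown comparisons. DNMT3B had 20.7 and 23.8 TPM in UF1hypo with shScr and 36.1 and 28.3 with shUHRF1, with a log2 difference of 0.51 ± 0.19 (adjusted p = 0.122). DNMT1 had 147 and 162 TPM in UF1hypo with shScr and 204 and 172 with shUHRF1, with a log2 difference of 0.28 ± 0.15 (adjusted p = 0.278). At an unadjusted p below 0.05, 0 cohesin and CTCF genes and 5 silencing factors passed for knockdown in UF1hypo, beside 27.4% of all genes. The numbers were 0 and 2 in HCT116, beside 6.38%, 0 and 2 for the difference, beside 18.5%, and 1 and 3 between the lines, beside 18.2%.

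Of 22 signalling partners and proteases, 1 was called, for knockdown in UF1hypo, beside 8.53% of all genes. It was RET, a receptor tyrosine kinase that clustered protocadherins associate with, which rose from 5.33 and 6.46 to 14.6 and 11.7 TPM (log2 difference 1.04 ± 0.23, limma, adjusted p = 0.0224). Of 18 other protocadherins and large cadherins, 4 passed the filter and 7 were listed at 0 throughout. Of these 4, 1 was called, for knockdown in UF1hypo, beside the same 8.53%. PCDH7, a delta protocadherin on another chromosome, fell with knockdown in UF1hypo from 25.2 and 27.0 to 11.1 and 10.9 TPM (log2 difference -1.18 ± 0.19, adjusted p = 0.00454). Of 16 genes that flank or lie between the clusters, 14 were tested, CD14 and SLC25A2 being too low. None of the 14 was called, beside 8.53% of all genes for knockdown in UF1hypo. TAF7, which lies between the beta and gamma clusters, had 63.1 and 53.9 TPM in UF1hypo with shScr and 59.5 and 96.8 with shUHRF1 (log2 difference 0.38 ± 0.23, adjusted p = 0.326), and SLC25A2, next to it, was listed at 0 in the 6 libraries of the other groups and had 0.297 and 0.107 TPM in UF1hypo shUHRF1; both were picked after their values were seen. The median log2 difference of the tested neighbours for knockdown in UF1hypo was 0.04, as it was over all tested genes.

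Single markers of other cell types were also called in these groups. For knockdown in UF1hypo, beside 8.53% of all genes, 2 of the 7 neuronal markers tested (of 15) were called, RBFOX3 (log2 difference 1.51 ± 0.32, limma, adjusted p = 0.0163) and NEFH (1.03 ± 0.18, adjusted p = 0.00750), 2 of the 4 leukocyte markers tested (of 10), CD3D (2.12 ± 0.27, adjusted p = 0.00166) and CD68 (1.11 ± 0.20, adjusted p = 0.00838), and 1 of the 7 epithelial markers tested (of 10), KRT20 (3.18 ± 0.23, adjusted p = 7.5e-05), all higher. Of the called markers, NEFH and CD3D passed the TPM filter only through UF1hypo shUHRF1, so their differences were bound to point upwards. Other neuronal markers lay lower without overlap, SYT1 at 4.39 and 4.83 TPM in UF1hypo with shScr and 1.60 and 3.66 with shUHRF1 (log2 difference -0.69 ± 0.28, adjusted p = 0.151) and ENO2 at 130 and 146 TPM with shScr and 125 and 104 with shUHRF1 (-0.27 ± 0.18, adjusted p = 0.367). Between the shScr lines, KRT8, KRT18, KRT19, KRT20, ENO2 and CD68 were called higher in UF1hypo and SYT1 lower. CDH1, KRT20, CD3D and CD68 were called in the difference between the knockdown effects, where CD3D again passed the filter only through UF1hypo shUHRF1. The summed leukocyte level was 7.68 to 45.0 TPM in the other groups and 84.0 and 117 in UF1hypo shUHRF1, almost all of it CD68. The summed neuronal level was 492 and 574 TPM in UF1hypo with shScr and 459 and 668 with shUHRF1, with overlap. The part of any of these markers in the protocadherin levels was not tested.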

How the data were processed

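The deposited tables hold, per gene and library, a coverage, an FPKM and a TPM value made by the authors with StringTie 2.1.4 from reads aligned with HISAT2 2.0.4 to GRCh38 (names and versions per the labels) after trimming with Fastp. The authors' deposited tables used here hold no counts, so the DESeq2 test of the study was not run, and intervals from counting could not be given. Gene types came from GENCODE 44, in which 60463 of 60649 identifiers were found, 19942 of them protein-coding; the authors' release is not given in the sources used here.

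Members were matched by symbol. One limma fit (version 3.58.1, R 4.3.3; means model of 4 groups, variance trend, 4 residual degrees of freedom) on log2(TPM + 1) over all 8 libraries was made for protein-coding genes above a TPM of 1 in at least 1 library of a comparison, with Benjamini-Hochberg adjustment over all of them. A call needed an adjusted p below 0.05 and an absolute log2 difference above 1. The fit was tested on simulated data. "Beside" a count of members stands the share of all tested protein-coding genes that met the same rule. Values per library were given for the 6 members of each cluster with the highest group mean, the C-type members and called members. Members, lists and alternatives were chosen with earlier results of these data known. Alternatives covered the pseudocount, the filter, FPKM, scaling, GC content, library weights and each library left out. Python 3.11.15 and pandas 2.3.3 served for tables.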

Additional observations from a re-analysis of the deposited data

Results flagged for a closer look

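PCDHGA11, a gamma A gene, was singled out because both of its knockdown libraries lay above the controls in UF1hypo and below them in HCT116. In HCT116 its mean level was 0.2479 TPM with shScr and 0.05738 with shUHRF1, and in UF1hypo it was 0.1022 with shScr and 0.489 with shUHRF1 (n = 2 each). The difference was not tested in the fit with the TPM filter, which PCDHGA11 did not pass. Without the filter, the difference between the knockdown effects on the log2(TPM + 1) scale was 0.66 ± 0.19 (SE, limma, adjusted p = 0.126).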

How the results depend on the processing

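The 4 groups share replicate numbers, which only name the libraries: deviations of same-numbered libraries correlated at -0.573 for knockdown in UF1hypo, 0.0151 in HCT116 and 0.0485 between the lines (11500 genes). With a replicate block, 0 members were called in any comparison, and all calls went from 1162 to 1110, from 9 to 1, from 702 to 471 for the difference and from 455 to 369 between the lines; with the numbers crossed in UF1hypo there were 1207 calls and again 0 members. Over the named results, 265 values under all alternatives had the direction and the side of the threshold of the main fit, 7 reversed and 1 crossed the threshold. Called members went from 0 to 6 for knockdown in UF1hypo and to 1 between the lines without the TPM filter and with a pseudocount of 0.1. Under quantile normalization, the log2 ratios of summed levels for knockdown in UF1hypo were -0.22 for alpha, 0.30 for beta and -0.093 for gamma, and the log2 differences -0.00020 for PCDHAC2 and -0.059 for PCDHGA10; with GC content and length correction that of PCDHGA10 was -0.11. Members lower without overlap in UF1hypo were 2 instead of 1 under median-ratio scaling and under GC correction of TPM within 10 bins. With each library left out, which leaves 1 library to compare with 2, they were 3 to 7, members higher in HCT116 with knockdown 10 to 16 and lower 6 to 13, and members higher in UF1hypo shScr 20 to 25 and lower 0 to 5. The difference for knockdown in UF1hypo then ran from -0.28 to 0.16 for PCDHAC1, positive without the first UF1hypo shScr or the second UF1hypo shUHRF1 library, and from -0.14 to 0.32 for PCDHGA10, negative without the first UF1hypo shUHRF1 library. Without the first UF1hypo shUHRF1 library it was 0.92 for PCDHB10 and 0.99 for PCDHGA9, with only the library left in that group through which both passed the filter. Between the lines it ran from -0.030 to 0.36 for PCDHGA10, negative without the second HCT116 shScr library. The cause of these changes was not tested.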

Other observations

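The 5 protocadherin pseudogenes that lie in the clusters and that the symbol rule leaves out were nearly silent outside UF1hypo. Their summed level was 0.173 and 0.031 TPM in HCT116 with shScr and 0 and 0.043 with shUHRF1, and 0.039 and 0.576 in UF1hypo with shScr and 1.06 and 0.680 with shUHRF1. PCDHB18P was listed at 0 in the 6 libraries of the other groups and had 0.487 and 0.317 TPM in UF1hypo shUHRF1. PCDHB19P was listed at 0 in 5 of those 6, had 0.0137 TPM in the second library of UF1hypo shScr, and reached 0.534 and 0.137 in UF1hypo shUHRF1. PCDHGB8P and PCDHGB9P did not separate the groups. None of the 5 was tested, since the fit covered protein-coding genes.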
